A study of Homo sapiens with 28 samples.

Results

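The immunoglobulin kappa (IgK) enhancer window on chromosome 2 was open in 6 myeloma cell lines and nearly empty of reads in 10 others, and the 2 sets of lines were compared across the genome. ATAC-seq, which cuts and tags accessible DNA with the Tn5 transposase, had been run once on each of 22 untreated human myeloma cell lines and on 6 of those lines at day 3 of 10 µM lenalidomide, giving 28 libraries. The lines were chosen by their measured values: reads were summed over the 4 regions of the window and scaled to the library's total reads in all 154985 regions, as CPM (counts for each 1000000 reads in regions). Lines at 50 CPM or more formed side A, the IgK-high lines (KMS11, KMS20, KMS26, KMS27, KMS28 and KMS34). Lines below 10 CPM formed side B, the IgK-low lines (H1112, KMS12BM, KMS12PE, L363, LP1, MM1S, OCIMY5, OPM2, PCM6 and XG-6). The 5 lines between these limits were left out of the comparison, as was PE1, so that 16 of 22 untreated lines were compared. All 16 were untreated, each library stood for 1 line, and no line was assayed more than once without drug, so that p-values measured the spread between lines. KMS12BM and KMS12PE come from the same patient and are not independent lines.

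Each B cell makes 1 light chain, either kappa or lambda. The kappa locus lies on the minus strand and runs from the variable (V) genes through 5 joining (J) genes and the constant gene IGKC to an intronic enhancer between J and IGKC, the 3′ enhancer beyond IGKC, and the kappa deleting element (Kde) beyond that. In many lambda B cells the RAG recombinase joins Kde to a signal in the J to C intron or to a V gene, which removes IGKC and the enhancers from that allele. The enhancers are bound in B lineage cells by PU.1 with IRF4, by E proteins and by NF-kB. These points are background: the files hold neither light chain expression nor copy number. The study describes KMS27 as expressing IgK, MM1S and OPM2 as expressing IgL, and L363 as carrying an IgL translocation, which the labels do not give and which formed no group here.

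The sequences below are shown because they place the window's regions within this map. They were read from GRCh37, and coordinates are in that build. A joining gene is flanked by a recombination signal, which is a 7-base heptamer, a spacer of 23 bases and a 9-base nonamer. The first region of the window, chr2:89131136-89132498, held a heptamer on the plus strand in the same orientation as those of the J genes. The next lines give these signals from the heptamer outwards on the plus strand, with heptamer and nonamer in capitals.
IGKJ1 signal (chr2:89161436-89161474): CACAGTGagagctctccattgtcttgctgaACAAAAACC
IGKJ4 signal (chr2:89160436-89160474): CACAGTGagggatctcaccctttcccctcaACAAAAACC
Kde region signal (chr2:89132286-89132324): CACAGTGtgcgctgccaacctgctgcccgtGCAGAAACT
The Kde region matched the heptamer at 7 of 7 bases and the IGKJ1 nonamer at 6 of 9. The region held 1 other heptamer, on the minus strand at chr2:89131673-89131679, where 1 of 9 bases matched the nonamer. Of the region, 1150 bases lie on the far side of this heptamer from IGKC and 213 bases run from the heptamer towards IGKC. The heptamer CACAGTG, searched on both strands, was also in 20.7% of 2792 regions of like width, so a match alone marks no signal. A further heptamer lay at chr2:89159111-89159117 on the minus strand, in the intron between the J genes and IGKC and outside any region of the files.

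The stretch around the Kde heptamer is shown on the minus strand, in the direction of IgK transcription, with the heptamer (read here as CACTGTG) in capitals.
Kde region (chr2:89132206-89132385): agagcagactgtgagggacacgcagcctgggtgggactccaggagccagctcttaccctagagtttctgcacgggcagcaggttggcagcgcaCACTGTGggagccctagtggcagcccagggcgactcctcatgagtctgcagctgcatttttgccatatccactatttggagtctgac
The last of the 4 window regions, chr2:89145107-89145927, holds the core of the 3′ enhancer. It is shown on the minus strand, with the site for PU.1 with an IRF factor (the longer run) and an E-box (CAGGTG, here on the other strand) in capitals.
3′ enhancer region (chr2:89145404-89145603): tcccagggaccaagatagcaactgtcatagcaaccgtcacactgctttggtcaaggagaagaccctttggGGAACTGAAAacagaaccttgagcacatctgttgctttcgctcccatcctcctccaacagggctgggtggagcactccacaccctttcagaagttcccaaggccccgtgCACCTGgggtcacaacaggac
Searched on both strands, the composite PU.1 and IRF site was in 1.32% of 10596 regions of like width, and CAGGTG in 64.9% of them. The intronic enhancer region, chr2:89157597-89158008, lies outside the window and is shown in the same way, with the kappa B site (the longest run) and 2 E-boxes in capitals.
Intronic enhancer region (chr2:89157818-89157951): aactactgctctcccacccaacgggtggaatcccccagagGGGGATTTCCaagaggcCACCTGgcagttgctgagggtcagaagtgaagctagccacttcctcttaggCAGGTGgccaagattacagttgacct
Of 20685 regions of like width, 0.421% held the kappa B site and 39.2% held CAGGTG. The 3 motifs did not overlap one another in the stretches shown, and such matches describe letters, not binding.

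The window sums set the sides and are given as a description. Among the IgK-high lines they were 57.05 CPM in KMS28, 85.0 in KMS26, 93.9 in KMS34, 94.1 in KMS27, 122 in KMS11 and 132 in KMS20. Among the IgK-low lines they were 1.31 CPM in KMS12BM, 4.17 in OPM2, 4.18 in PCM6, 5.15 in MM1S and 6.12 in L363, with 6.49 in OCIMY5, 7.12 in KMS12PE, 7.82 in LP1, 8.45 in H1112 and 8.73 in XG-6. KMS28 was the line just inside the upper limit, and U266 at 41.5 CPM the line just outside it. XG-6 was just inside the lower limit, and KMS21BM at 15.5 CPM just outside. The 95% Wilson interval of KMS28, 47.8 to 68.1 CPM, crossed the limit of 50, and those of LP1, XG-6, H1112, KMS12PE and L363 crossed the limit of 10. Wilson intervals and the floors given below cover counting error only.

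**Figure D1:**
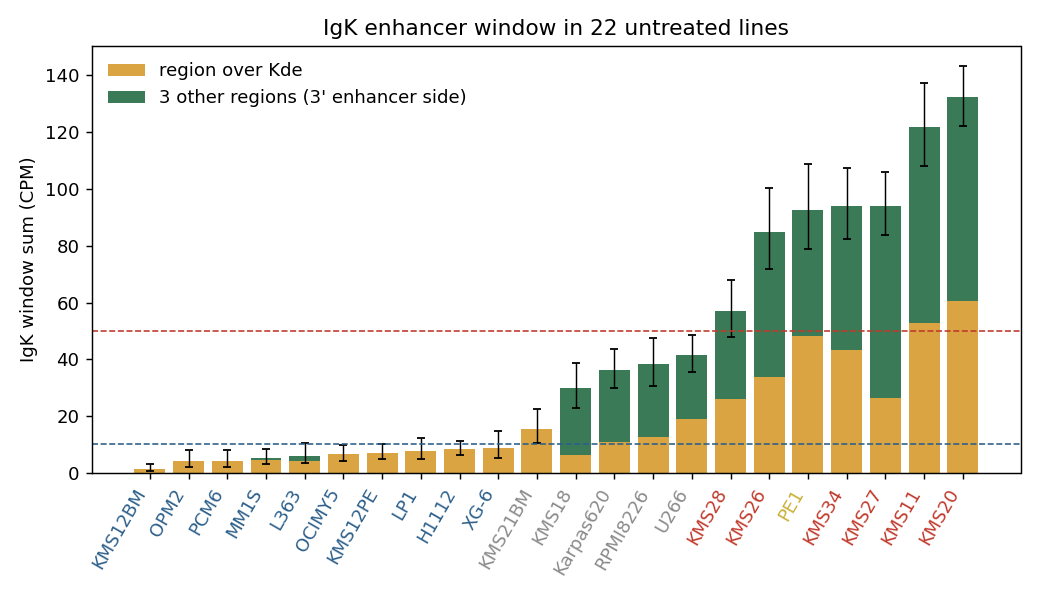
Window sum of each of the 22 untreated lines in CPM, as bars divided into the Kde region and the 3 other regions of the window, with 95% Wilson intervals of the sum and dashed lines at 50 and 10 CPM. Names are red for side A, blue for side B, grey for lines between and yellow for PE1. The 10 blue lines sit between 1.31 and 8.73 CPM, and in 8 of them the whole bar is the Kde region.

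The counts of the 4 regions set the sides, so how they were spread within the window is also a description, with no test. In the IgK-high lines the Kde region took 27.96% to 46.1% of the window's counts. In the IgK-low lines it took 66.7% to 100%, with a median of 100%. The Kde region itself ran from 26.0 CPM (KMS28) to 60.4 CPM (KMS20) in side A and from 1.31 CPM (KMS12BM) to 8.73 CPM (XG-6) in side B, and was called as a peak in 6 of 6 and 4 of 10 lines. The other 3 window regions together gave 31.1 to 72.0 CPM in the IgK-high lines, or 954 counts in all. In the IgK-low lines they gave 6 counts in all: 4 in L363, 2 in MM1S and 0 in the other 8 lines. A count of 0 allowed up to 3 counts, which is 0.539 CPM in H1112, the deepest of these 8 libraries, and 1.87 CPM in XG-6, the shallowest.

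The tallest of these 3 regions, chr2:89137575-89138278, lies between Kde and the enhancer core. It measured 14.4 CPM in KMS28, 28.7 in KMS26, 30.3 in KMS34, 33.4 in KMS27, 34.4 in KMS20 and 52.4 in KMS11. In side B it was at 0.687 CPM in MM1S, 1.02 CPM in L363 and 0 in the other 8 lines. The enhancer core region measured 15.6 CPM in KMS11, 16.2 in KMS28, 19.9 in KMS34, 21.4 in KMS26, 29.0 in KMS20 and 33.7 in KMS27. In side B only L363 had a read there, a single count (0.510 CPM). The third, chr2:89144637-89144815, ran from 0.433 to 8.59 CPM in side A, and there L363 at 0.510 CPM overlapped with side A. All 4 regions of the window lie within the lncRNA ENSG00000240040 of GENCODE, on the minus strand.

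The lack of reads went on past the window towards the J and V genes. This part of the locus adjoins what set the sides, so its values are a description. The region over the end of IGKC, chr2:89155009-89156927, begins just outside the window. It measured 14.8 CPM in KMS28, 47.2 in KMS34, 66.4 in KMS20, 67.8 in KMS27, 88.6 in KMS26 and 113 in KMS11. Among the IgK-low lines it held 1 count in H1112, 2 in L363, 3 in MM1S and 0 in the other 7. The intronic enhancer region measured 6.96 CPM in KMS28, 11.9 in KMS11, 20.3 in KMS34, 23.6 in both KMS27 and KMS20, and 25.1 in KMS26. L363 was again the only IgK-low line with a read there, at 1 count. Hence no IgK-low line reached the lowest IgK-high line at either region.

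Beyond the J genes the sides no longer separated. The 7 regions from chr2:89165059 to chr2:89242630, which span the V genes nearest to J, held 60.6 CPM in KMS20, 55.0 in KMS34 and 32.5 in KMS28, but 0.675 CPM in KMS27 and 0 in KMS11 and KMS26. The IgK-low lines split as well. MM1S held 31.9 CPM, H1112 16.9, PCM6 7.90 and L363 2.55 over these 7 regions. OPM2 and KMS12PE had 1 count each, and KMS12BM, LP1, OCIMY5 and XG-6 had 0. Among the 20 regions of the proximal V genes the medians were 77.1 CPM in side A and 35.0 CPM in side B, with ranges of 24.6 to 108 and 9.99 to 67.0 CPM that overlapped. Over the 45 regions of the distal V genes the medians were 110 and 105 CPM, again with overlapping ranges. These segments were drawn after the values were seen.

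**Figure D2:**
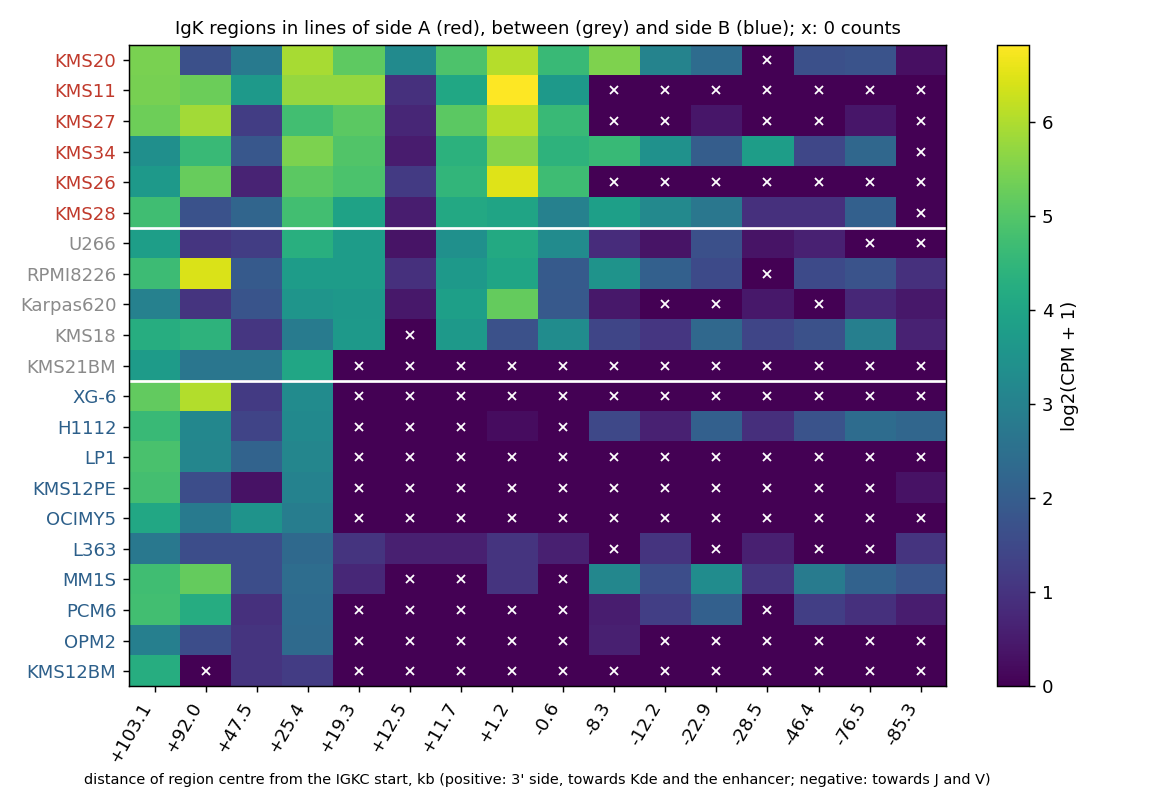
log2(CPM + 1) at 16 regions of the IgK locus (columns, by distance of the region's centre from the IGKC start in kb) in 21 lines (rows), with side A above, lines between in the middle and side B below, and a white x where a library had 0 counts. Counts of 0 begin between the Kde region and its neighbour in 8 of the 10 side B lines and in KMS21BM.

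The stretches without reads were long relative to the rest of each library. Starting next to Kde, 12 consecutive regions over 105.1 kb were at 0 in KMS12BM, OCIMY5 and XG-6, 13 regions over 140.7 kb in LP1, and 11 regions over 96.3 kb in KMS12PE. In KMS12BM, KMS12PE and XG-6 no run of regions at 0 on any autosome was longer, and this was the only run of its length. LP1 had 1 other run of at least that length and OCIMY5 had 2. In PCM6 and OPM2 the run was shorter, 5 regions over 20.4 kb, and in H1112 it was 3 regions over 8.4 kb. The last of the 5 regions lies in the J to C intron, but the next region begins at chr2:89165059, beyond the J genes. Where the stretch ends between these regions cannot be read from the counts. Runs at least that long were found 180, 52 and 40 times in these 3 libraries, so runs of those lengths were common there. A single count ends a run, so the lengths understate how empty the locus was. In OPM2, 1 count ended the run and the next 6 regions were again at 0. In H1112 the IGKC and intronic enhancer regions that followed the run held 1 count between them. Regions of similar width that were not called in a given IgK-low line were at 0 in 1.17% (H1112) to 12.6% (PCM6) of cases, with a median of 4.08% over the 10 lines. A closed locus and a missing one cannot be told apart from these counts, because the files give no copy number.

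The DNA on the far side of Kde was covered in both sides. The 383 regions of the 5 Mb before the locus summed to 2206 to 3320 CPM in side A and 2352 to 3307 CPM in side B. The mean of log2(CPM + 1) was 11.40 ± 0.24 (SD, n = 6) and 11.46 ± 0.15 (SD, n = 10), a difference of -0.06 ± 0.11 (SE; exact permutation test, two-sided, p = 0.558, adjusted over 6 such tests 0.915). The nearest tested promoter, a region over the start of RPIA (ribose phosphate isomerase), had a log2 fold change of -0.17 ± 0.19 (SE). The same region counted for EIF2AK3 (the PERK kinase of the unfolded protein response) through an annotated start within 2.5 kb. It need not be the main EIF2AK3 promoter.

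The lambda and heavy chain loci were then compared, since a B cell with no usable kappa allele expresses lambda. The 5 regions of the IgL 3′ enhancer summed to 39.1 CPM in KMS20, 64.5 in KMS28, 70.1 in KMS34, 71.7 in KMS11, 158 in KMS27 and 305 in KMS26. In side B the lowest, median and highest sums were 46.5 CPM (PCM6), 86.1 CPM and 166 CPM (L363). L363 is the line described as IgL-translocated, and the part of the translocation or of extra copies in its value was not tested. On the log2(CPM + 1) scale, side A stood at 6.54 ± 1.05 (SD, n = 6) and side B at 6.42 ± 0.55 (SD, n = 10). The difference of 0.12 ± 0.46 (SE) was within the spread between lines (exact permutation test, two-sided, p = 0.763, adjusted 0.915). Without KMS26 the difference turned to -0.22, without KMS27 to -0.03, and without L363 it was 0.23.

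The 11 regions over the IgL J and C genes ran from 6.96 CPM (KMS28) to 109 CPM (KMS26) in side A and from 10.2 CPM (PCM6) to 117 CPM (L363) in side B. Here the difference was -0.03 ± 0.64 (SE) in log2(CPM + 1) (exact permutation test, two-sided, p = 0.962, adjusted 0.962). It took the other sign when the tallest region alone was used, with local scaling, when 21 lines were split at 20 CPM, and without any 1 of 7 lines.

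The 49 regions of the IgH constant and enhancer segment, from chr14:106023556 to chr14:106329586, hold the 3′ regulatory regions and the intronic enhancer of the heavy chain locus. They summed to 462 CPM (KMS20) to 827 CPM (KMS27) in side A, with a median of 532 CPM. In side B they ran from 342 CPM (OPM2) to 1185 CPM (LP1), with a median of 676 CPM. The difference of -0.15 ± 0.25 (SE) in log2(CPM + 1) was not past the threshold (exact permutation test, two-sided, p = 0.617, adjusted 0.915) and turned to 0.05 with local scaling. Within 6 lines commonly described as carrying a WHSC1 translocation, IgL 3′ enhancer values were 6.66 ± 1.07 (SD, n = 4) in side A and 6.82 ± 0.29 (SD, n = 2) in side B, and IgH values were 9.11 ± 0.23 and 9.32 ± 1.27.

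**Figure D3:**
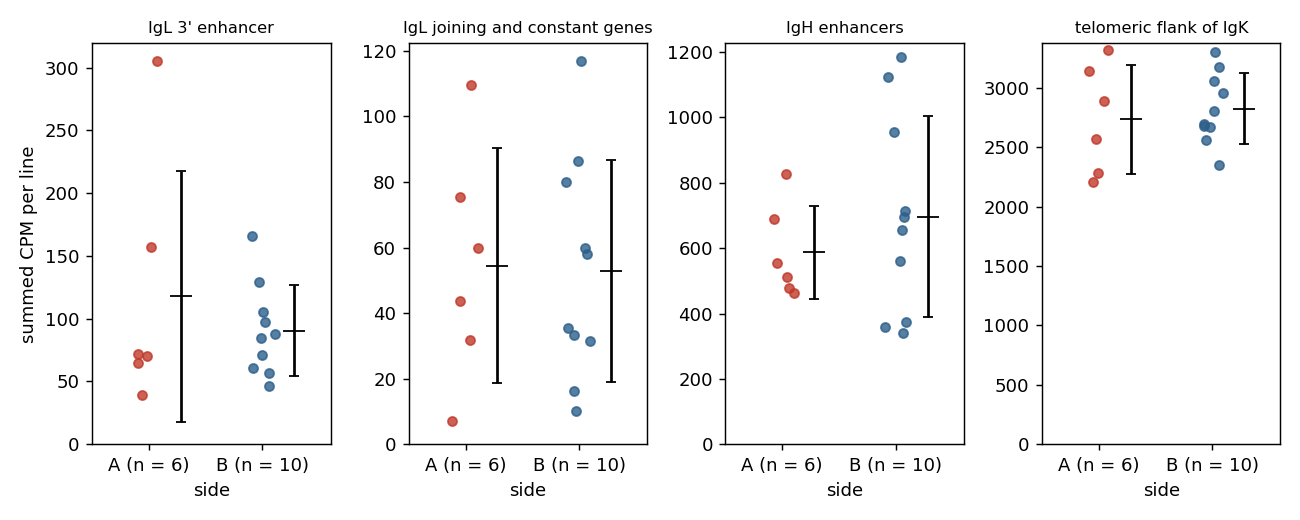
Summed CPM per line at the IgL 3′ enhancer, the IgL joining and constant genes, the IgH enhancer segment and the telomeric flank of IgK, for side A (n = 6) and side B (n = 10), with mean and SD beside the points. The 2 sides overlap in each panel.

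Across the genome, outside the window, 46803 regions were tested with edgeR's quasi-likelihood test, and 2 were called at a Benjamini-Hochberg adjusted p under 0.05 (0.00427%). Both were higher in side A, and both were the regions beside the window described above. The IGKC region had a fitted log2 fold change of 7.998 (adjusted p = 1.39e-05) and the intronic enhancer region 7.83 (adjusted p = 1.04e-05). With so few reads in side B these fitted values depend on the prior count and are not a bound. They adjoin the window and are no independent support for a difference.

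Outside the IgK locus and its flanks on chromosome 2, edgeR called 0 of 46775 regions (0.0%), while 1109 (2.37%) had an unadjusted p under 0.05, of which 469 (1.0%) were higher and 640 (1.37%) lower in side A. DESeq2 called 16 regions, or 0.0343% of those with an adjusted p, including the same 2 beside the window. Of its other 14, 7 were higher and 7 lower in side A, and 13 overlapped between the sides.

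Those 14 regions were named after their values were seen. A region nearest OSBPL6, which encodes an oxysterol-binding protein, had a median of 13.8 CPM in side A and ranged from 2.02 to 27.3 CPM. Its edgeR log2 fold change was 2.39 ± 0.48 (SE), with an adjusted p of 1.00. A region nearest CELSR3, a cadherin receptor of planar polarity, ranged from 0 to 1.39 CPM in side A and had a mean of 9.03 CPM in side B. A region nearest HPCAL1, a neuronal calcium sensor, had means of 5.25 CPM in side A and 21.6 CPM in side B. The ranges of the 2 sides overlapped for all 3.

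Only 3 of the 46775 regions (0.00641%) had CPM that did not overlap between the sides, and all 3 were higher in side A. They were singled out for this after their values were seen, and none passed the test in edgeR. Full separation with side A higher is 1 of 8008 possible regroupings of the lines. A few such regions among 46775 can thus arise without any difference between the sides. The region nearest XXbac-BPG308K3.6 on chromosome 6 ranged from 41.8 to 78.2 CPM in side A and from 0.624 to 36.7 CPM in side B. The region at the start of GHRHR, the receptor for growth hormone releasing hormone, ranged from 9.67 to 12.1 CPM and from 1.05 to 8.67 CPM. The region nearest AL162389.1 on chromosome 9 ranged from 5.19 to 37.1 CPM and from 0 to 5.11 CPM, and was also 1 of the 14 called by DESeq2.

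**Figure D4:**
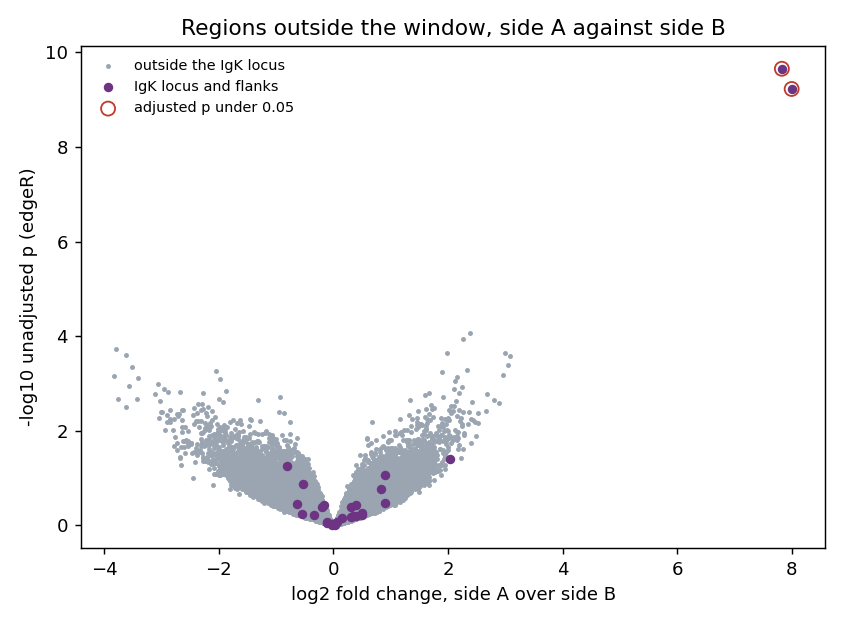
Each tested region outside the window by its fitted log2 fold change of side A over side B and its -log10 unadjusted p from edgeR, with regions of the IgK locus and its flanks in purple and the 2 regions past an adjusted p of 0.05 circled in red. Those 2 lie near a log2 fold change of 8. The lowest value of any tested region is -3.82, and tested promoter regions lie between -3.76 and 3.07.

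Single regions were also ranked by how closely their CPM followed the window sum over the 21 lines, as a description with no test. The lines in this ranking differ in library depth and in part share a translocation group. Of 86727 regions outside the locus, the closest was one nearest KCTD15, a BTB-domain protein, with a Spearman rho of 0.76 over 21 lines and medians of 25.2 CPM in side A and 3.99 CPM in side B. It was followed by regions nearest CTC-255N20.1 (0.74), AC073842.19 (0.73), HVCN1 (0.72) and MIR145 (0.72). HVCN1 encodes the voltage-gated proton channel of B cells, and its region ranged from 6.43 to 14.3 CPM in side A and from 3.72 to 8.73 CPM in side B. The IGKC and intronic enhancer regions had rho of 0.85 and 0.87.

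Whole libraries did not group by side. Among the 16 lines, the line with the most similar profile was on the same side for 1 of 6 IgK-high and 4 of 10 IgK-low lines. Likeness here is Pearson's r of log2(CPM + 1) across 86059 regions, centred over libraries. Pairs within side A had a median r of -0.05, pairs within side B -0.06 and pairs across sides -0.05. KMS11 was nearest LP1 (r = 0.26) and KMS28 nearest OPM2 (r = 0.25), both pairs being across sides. KMS12BM and KMS12PE, from the same patient, were nearest each other (r = 0.31).

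The next question was whether promoters of genes tied to the kappa locus, to light chain recombination or to the plasma cell state differed between the sides. Lists of 91 genes were compared by the region nearest a transcription start, within 2.5 kb. Any annotated start of a gene counted, so the region need not lie at its main promoter. Of these genes 81 had a region, 63 were tested and 0 passed the test in either direction, in edgeR or in DESeq2. A single region of the 62 distinct ones had an unadjusted p under 0.05, where promoters as a whole gave 0.533% higher and 0.903% lower, and all 62 overlapped between the sides.

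Of the transcription factors that bind the IgK enhancers, 12 of 14 were tested, with a median log2 fold change of -0.04 beside -0.03 for the 14622 tested promoter regions. The single region with a low unadjusted p was that of IKZF1, the Ikaros factor that lenalidomide degrades, at 15.3 to 27.7 CPM in side A and 20.8 to 84.7 CPM in side B. Its log2 fold change was -0.72 ± 0.32 (SE). NFKB1, the p50 subunit of NF-kB, had a log2 fold change of -0.83 ± 0.48 (SE), with OCIMY5 at 183 CPM and no other line above 55.3 CPM. Without OCIMY5 that fold change was -0.28 on the log2 scale. IRF4, the partner of PU.1 at the 3′ enhancer, had a log2 fold change of -0.47 ± 0.29 (SE), TCF3 (E2A) of -0.45 ± 0.43 and RELA of -0.15 ± 0.30. SPI1, which encodes PU.1, and SPIB, which encodes a related Ets factor, were too low for the test. SPI1 had a median of 2.15 CPM in side A and 1.63 CPM in side B.

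Of the light chain recombination genes 6 of 10 were tested, with a median log2 fold change of -0.19. For RAG1, a subunit of the recombinase, the region nearest any annotated start ranged from 27.5 to 82.6 CPM in side A and from 20.9 to 70.0 CPM in side B. Whether that region is the main RAG1 promoter was not tested. RAG2, the other subunit, had medians of 1.00 and 5.51 CPM. DCLRE1C, the Artemis nuclease that opens hairpin ends, had a log2 fold change of -0.52 ± 0.30 (SE), and XRCC4, of the end-joining ligase complex, one of 0.13 ± 0.23.

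Of the plasma cell genes 14 of 16 were tested, with a median log2 fold change of 0.05. PRDM1 (Blimp-1) had medians of 28.1 CPM in side A and 23.5 CPM in side B, and TNFRSF17 (BCMA) of 40.2 and 36.9 CPM. SDC1, the plasma cell surface marker CD138, was at 34.9 to 80.1 CPM in side A and 6.04 to 85.2 CPM in side B, where PCM6 was the low line. The 6 plasma cell markers summed to 136 to 211 CPM in side A and 75.3 to 234 CPM in side B, so that both sides carried them.

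Of the B cell genes 9 of 22 were tested, with a median log2 fold change of 0.11. CR2, the complement receptor CD21, ranged from 9.78 to 102 CPM in side A and from 2.79 to 46.2 CPM in side B, with a log2 fold change of 1.04 ± 0.59 (SE) that was 0.53 without KMS26, the highest line. CIITA, the activator of MHC class II genes, had a log2 fold change of -0.38 ± 0.29 (SE). The promoters of CD22 and TCL1A stayed at or below 2.63 CPM in all 16 lines.

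The NF-kB regulators had 10 of 12 tested and a median log2 fold change of 0.02. BIRC2 and BIRC3, neighbouring genes that encode inhibitors of the noncanonical pathway, were at 0 counts in KMS20. The other IgK-high lines ranged from 38.5 to 134 CPM at BIRC2, and the IgK-low lines from 61.0 to 188 CPM. TNFRSF13B (TACI) had medians of 2.77 CPM in side A and 3.47 CPM in side B, but a fitted log2 fold change of 1.23 ± 1.01 (SE). The medians and the fitted value thus point in opposite directions, so no direction is read from them. The kappa neighbours had 3 of 8 genes tested over 2 regions, with KRCC1 at -0.20 ± 0.24 (SE).

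**Figure D5:**
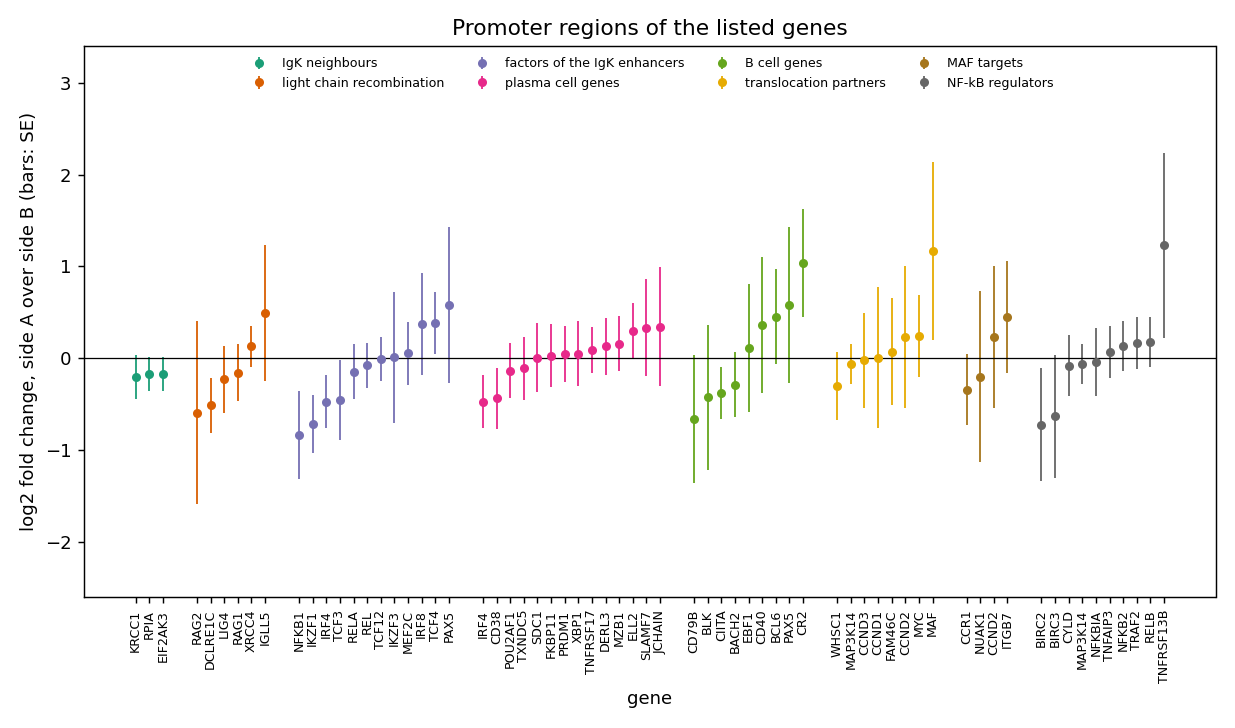
Fitted log2 fold change of side A over side B, with SE, for the promoter regions of tested genes, grouped by list. RPIA and EIF2AK3 share a region, and IRF4, PAX5, CCND2 and MAP3K14 stand in 2 lists. The points lie between -0.83 and 1.23, and none passed an adjusted p of 0.05.

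Among the lines that could be classed, translocation groups were spread unevenly over the sides, with WHSC1 and CCND1 on both. The labels give no translocations, so common knowledge of these lines was used as background, not as a group of the study. Of the IgK-high lines 4 of 6 (KMS11, KMS26, KMS28 and KMS34) are described as carrying a WHSC1 translocation, and KMS27 a CCND1 translocation. Of the IgK-low lines WHSC1 applies to 2 of 10 (LP1 and OPM2), CCND1 to 2 (KMS12BM and KMS12PE) and MAF to 2 (MM1S and OCIMY5). Each classed line was given 1 partner only, so a second translocation in a line, of MAF or another gene, would not show. The other lines, 1 of side A and 4 of side B, were not classed, so the true split is not known. An effect of side and an effect of translocation cannot be told apart for regions that differ between these classes.

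The 9 tested translocation partners had a median log2 fold change of 0.07. MAF stood at 1.17 ± 0.97 (SE), CCND2 at 0.23 ± 0.77, CCND1 at 0.01 ± 0.77 and WHSC1 at -0.30 ± 0.37. The CCND1 and WHSC1 regions were low in both sides. CCND1 ran from 0 CPM (L363 and PCM6) to 11.9 CPM (H1112), with 10.5 CPM in KMS27. WHSC1 ran from 2.70 CPM (KMS27) to 14.3 CPM (KMS34). Whether these regions are the main promoters was not tested, so the fold changes do not show how those promoters compare. The 4 tested MAF targets had a median of 0.02. FAM46C, a tumour suppressor in myeloma, was at 0 counts in LP1 and at 11.03 to 73.5 CPM in the other 15 lines.

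Lenalidomide-treated libraries of 4 lines of the 2 sides were set beside the untreated ones as a description. The window sum in KMS27 was 94.1 CPM untreated and 104 CPM with drug. It was 6.12 and 3.23 CPM in L363, 5.15 and 4.72 CPM in MM1S, and 4.17 and 6.33 CPM in OPM2. The 95% Wilson intervals of the 2 libraries overlapped in each of these lines. At the 3 regions apart from Kde, the drug-treated libraries of L363, MM1S and OPM2 held 0, 3 and 2 counts, so a second library of each IgK-low line showed the same near absence of reads. These 2 libraries per line differ in treatment and are not replicates.

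The 5 lines between the sides did not form a single kind. KMS21BM, at 15.5 CPM, had all of its window counts in the Kde region and 0 counts at the next 12 regions, the same span as in KMS12BM, OCIMY5 and XG-6. KMS18, Karpas620, RPMI8226 and U266 had 22.7 to 25.5 CPM at the 3 regions apart from Kde. PE1 had a window sum of 92.5 CPM. Its profile was as close to that of KMS34 (r = 0.76) as untreated libraries were to drug-treated libraries of the same line (0.65 to 0.86), while the next closest pair of differently named lines had r = 0.31. PE1 was in no comparison.

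Libraries of the 2 sides were of like depth. Totals ran from 1635784 to 4653969 counts in side A and from 1602855 to 5564534 in side B (exact permutation test of log2 totals, two-sided, p = 0.640), and 22738 to 54387 and 18943 to 58983 regions were called (p = 0.690, exact permutation test). KMS20 and H1112 had the most reads and the most called regions of their sides. Markers of other cell types were compared by their summed promoter CPM. T cell markers ranged from 27.8 to 44.5 CPM in side A and 30.6 to 47.8 CPM in side B, nearly all of it at CD28, which plasma cells also use. Myeloid markers ranged from 1.38 to 5.80 and 2.32 to 16.8 CPM, erythroid markers from 45.8 to 153 and 61.8 to 195 CPM, and stromal markers from 26.4 to 46.3 and 17.2 to 116 CPM. The defining markers CD2, CD5, LYZ, CSF1R and MPO had no region near their start. The part of these markers in the results was not tested.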

How the data were processed

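The submitters' processing notes name GRCh37, Bowtie2 (2.2.6), SAMtools (1.7) and MACS2 (2.1.0.20151222), with peaks at a q of 0.01. The authors deposited raw counts of reads in 154985 autosomal regions merged over the libraries, and a table of whole-number counts read here as the number of each library's own peaks per region. The methods shared by ATAC-seq and ChIP-seq state, for ChIP-seq reads, that duplicates were marked with SAMtools. Whether ATAC duplicates were removed and Tn5 offsets applied is not given in the sources used here. A deposited table of normalised coverage was not used, and CPM were computed from the counts.

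The members and gene lists were chosen with earlier results of these data known. Regions outside the window passing filterByExpr were fitted with edgeR (4.0.16; TMM, quasi-likelihood, Benjamini-Hochberg) in R (4.3.3), with DESeq2 (1.42.0) as an alternative. The script was tested on simulated data. Sums over loci were compared as log2(CPM + 1) by exact permutation over 8008 regroupings, whose smallest possible p is 0.000125. With 1 library a line, the precision of a single line's value rests on depth, 1602855 to 5564534 counts over the 16 lines. Comparisons of the sides rest on the spread between lines. Named regions were to be the 10 most raised and 10 most lowered called regions without overlap between sides, outside the IgK locus and its flanks (none met this), all list genes, all regions of the window and of the J and C genes, and the 5 regions most like the window sum. Of the list genes, 2 are not reported here. GENCODE symbols were used, with NSD2 and TENT5C for WHSC1 and FAM46C.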

Additional observations from a re-analysis of the deposited data

Results flagged for a closer look

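Among 28 sets of values examined for a sample far from the others, 5 had one. The rule flags about 1 in 20 sets when values are spread normally, which was not tested here. Some sets also overlap or helped to set the sides, so 5 of 28 cannot be read as an excess. In side B, L363 had 2.04 CPM, or 4 counts, at the 3 regions of the 3′ enhancer, where 8 lines had 0. Those regions helped to set the sides, so this flag is a description and no test. Also in side B, MM1S stood apart at the regions between J and the nearest V genes with 31.9 CPM, and PCM6 at the distal V genes with 262 CPM. In the number of called regions, KMS20 stood apart in side A with 54387 and H1112 in side B with 58983.

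Libraries outside the comparison had window sums above the highest IgK-low line, which was XG-6 at 8.73 CPM. For the untreated lines between the sides the limits fixed this in advance, so the values are a description and no result. The untreated lines were KMS21BM at 15.5 CPM, KMS18 at 29.7, Karpas620 at 36.1, RPMI8226 at 38.2, U266 at 41.5 and PE1 at 92.5 CPM. Among drug-treated libraries they were RPMI8226 at 42.1 CPM, Karpas620 at 44.2 and KMS27 at 104 CPM.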

How the results depend on the processing

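Of 26 alternatives, 23 kept the count of regions different between the sides within 1.5 times of 2. DESeq2 gave 16 regions, 9 higher and 7 lower in side A. The count was 0, with 0 higher, when each library needed at least 10 counts and when 21 lines were split at 20 CPM, where both IgK regions failed the filter and were not tested. Leaving out 1 line gave 2 to 3 regions, 2 to 3 higher and 0 to 0 lower, with a region near ALPK2 added without KMS34 and one near RP11-373A6.1 without MM1S. No listed gene was called under any of the 26.

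The single sums stayed short of the threshold throughout. Signs reversed for IgH with local scaling (0.045), and for the IgL J and C genes with the tallest region (0.25), local scaling (0.029) and the split at 20 CPM (0.15). Over leave-one-out fits the differences ran from -0.22 to 0.37 for the IgL 3′ enhancer, -0.30 to 0.46 for the IgL J and C genes, -0.25 to -0.05 for IgH, -0.12 to 0.0012 for the flank, -0.31 to -0.01 for log2 library totals and -6635 to 343 for called regions. The fit without the 2 deepest libraries and the IgL J and C and flank sums were added after the data were seen. No paired analysis was possible because the sides are different lines with 1 library each. Depth limits values near 0 to between 0.539 and 1.87 CPM.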
